A study of Mus musculus with 12 samples.

Results

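The miR-23/27/24 clusters are a pair of paralogous miR loci, and the mature 3p miRs they encode, mmu-miR-23a-3p, mmu-miR-23b-3p, mmu-miR-27a-3p, mmu-miR-27b-3p and mmu-miR-24-3p, were followed across 12 fetal mouse livers. They were chosen by name as 5 of the 1978 mature miRs listed in the count table. The 1978 miRs fill 1927 entries, because miRs that share reads are joined, and the 5 miRs fill 3 entries: miR-23a-3p/23b-3p, miR-27a-3p/27b-3p and miR-24-3p. The 6 other arms of the same hairpins, each in an entry of its own, were read beside them.

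miR-seq was performed on whole livers of female fetuses at E18.5, close to birth, with 1 library per fetus, from 5 WT and 7 Mir483Pat-KO fetuses. The Mir483Pat-KO fetuses inherited from their father a deletion of Mir483, a miR gene inside the imprinted gene Igf2, and the WT fetuses were littermates. The deletion was made with Cre in embryonic stem cells of C57BL/6N origin and is constitutive. Cells of 2 independent clones were injected into blastocysts, and the colony was later kept by crosses to C57BL/6J wild-types. Which clone each fetus traces to is not given in the sources used here. The miR reads counted in a library numbered from 658665 to 1211160, so that 3 counts, the floor used here, correspond to between 2.48 and 4.55 CPM (counts scaled to a common total). The deletion was visible in every library: miR-483-3p was at 1071 ± 103 CPM in WT (SD, n = 5) and 15.2 ± 10.8 CPM in Mir483Pat-KO (SD, n = 7). The hepatocyte miRs miR-122-5p, miR-192-5p and miR-194-5p together made up at least 163979 CPM in every library, the labelled tissue being liver. WT libraries carry index numbers 37 to 41 and Mir483Pat-KO libraries 42 to 48, so that an effect of index order cannot be told apart from one of genotype. Animal numbers fall into a range below 450, with 4 WT and 4 Mir483Pat-KO fetuses, and a range above it, with 1 WT and 3 Mir483Pat-KO fetuses.

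Each cluster is transcribed as a single primary transcript from which Drosha and Dicer release a miR-23, a miR-27 and a miR-24 hairpin, and each hairpin yields a 5p and a 3p arm. The 3p arms are the strands usually loaded into Argonaute, where bases 2 to 8, the seed, pair with target mRNAs. In liver, miR-27 is known for targets in lipid metabolism, the 23b cluster for repressing TGF-beta signalling in fetal hepatoblasts, and miR-24 for targets in cell-cycle control, and both clusters are also abundant in endothelial cells.

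The mature 3p sequences are shown because they decide which copies the counting could separate. They were taken from RefSeq on GRCm38.p6, which held 4 of the 5 miRs; mmu-miR-23b-3p is named only. Capitals mark the seed.
mmu-miR-23a-3p: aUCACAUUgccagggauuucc
mmu-miR-27a-3p: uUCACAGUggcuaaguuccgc
mmu-miR-27b-3p: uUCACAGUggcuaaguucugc
mmu-miR-24-3p: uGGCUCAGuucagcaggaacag
mmu-miR-27a-3p and mmu-miR-27b-3p share the seed UCACAGU and their first 18 bases, and differ by the single substitution C19U, counted from 1 at the 5′ end. mmu-miR-24-3p is the same in both clusters. The seed of miR-23a-3p differs from that of miR-27a-3p by U7G, counted from 1 at the 5′ end of the mature miR. No other miR of the sequence table that had a count shared a seed with these 4; 4 further miRs share the miR-24-3p seed, and all of them were listed at 0 in the 12 libraries.

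The 5p arms differ between the clusters and have separate entries, so they are the only counts in this table that name the locus they came from. Capitals again mark bases 2 to 8.
mmu-miR-27a-5p: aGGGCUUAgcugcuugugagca
mmu-miR-27b-5p: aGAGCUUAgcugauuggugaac
mmu-miR-24-2-5p: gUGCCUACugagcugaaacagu
mmu-miR-24-1-5p: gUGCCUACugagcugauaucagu
miR-27a-5p and miR-27b-5p differ at 8 positions, the seed included. miR-24-2-5p and miR-24-1-5p share their first 16 bases and diverge only at the 3′ end, so a read trimmed to the common part could not be placed; how such reads were counted was not tested.

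The 23a cluster lies on the plus strand of chromosome 8 (GRCm38), with Mir23a at chr8:84208518-84208592, Mir27a at chr8:84208672-84208758 and Mir24-2 at chr8:84208815-84208921. Its 3 hairpins span 404 bases. It is intergenic except that the last bases of Mir24-2 overlap the first exon of the annotated gene Gm26532 on the same strand. The 23b cluster lies on the plus strand of chromosome 13, with Mir23b at chr13:63300484-63300557, Mir27b at chr13:63300712-63300784 and Mir24-1 at chr13:63301208-63301275. Its hairpins are spread more widely, with 154 bases between Mir23b and Mir27b against 79 bases between Mir23a and Mir27a. All 3 lie inside 2010111I01Rik, an aminopeptidase gene on the same strand, and inside Fancc, a Fanconi anemia gene, on the opposite strand. Mir23b is intronic in 2010111I01Rik, while Mir27b and Mir24-1 overlap exons of some of its annotated transcripts. On the opposite strand of each miR-24 hairpin lies a Mir3074 hairpin, and the 20 bases by which miR-3074-5p overlaps miR-24-3p are complementary to it.

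miR-27a-3p/27b-3p was the most abundant of the 3 entries in all 12 libraries. Its counts in the 5 WT libraries were 5175, 4527, 3413, 3885 and 5130 reads, and in the 7 Mir483Pat-KO libraries they ran from 3050 through a median of 3326 to 4214 reads. It made up between 0.418% and 0.551% of a library and ranked between 31 and 36 among all entries. The miR-24-3p entry, which collects the identical miR of both clusters, came next. It had 1033, 999, 681, 857 and 993 reads in WT and from 708 through a median of 770 to 846 reads in Mir483Pat-KO, and ranked between 69 and 75. miR-23a-3p/23b-3p was the lowest, with 614, 521, 427, 405 and 557 reads in WT and from 306 through a median of 350 to 410 reads in Mir483Pat-KO. It ranked between 94 and 113. The order miR-27 over miR-24 over miR-23 held in every library, with no overlap between the 3 entries. As shares of their summed reads, miR-27-3p took 75.5% ± 1.02, miR-24-3p 16.4% ± 1.07 and miR-23-3p 8.11% ± 0.828 (SD, n = 12). The mature forms are of like length, at 21 or 22 bases, but adapter ligation and PCR favour some small RNAs over others, so these are shares of reads and not of molecules. Intervals given for shares cover counting error only, since reads without molecular identifiers are not independent molecules.

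The other arms were far more uneven. miR-23a-5p and miR-23b-5p, the 5p arms of the miR-23 hairpins, were listed at 0 in all 12 libraries. miR-27a-5p had 17, 14, 16, 22 and 20 reads in WT and from 9 through a median of 15 to 26 reads in Mir483Pat-KO, and miR-27b-5p had 15, 13, 10, 7 and 8 reads in WT and from 3 through a median of 8 to 9 reads in Mir483Pat-KO. Both miR-27 5p arms were thus rare in every fetus. miR-24-1-5p, from the 23b cluster, was as rare, with 15, 14, 9, 13 and 24 reads in WT and from 7 through a median of 8 to 10 reads in Mir483Pat-KO. miR-24-2-5p, from the 23a cluster, had 1238, 1014, 706, 942 and 1074 reads in WT and from 654 through a median of 806 to 1020 reads in Mir483Pat-KO, and ranked between 65 and 75, beside miR-24-3p. The table holds no single reads, its lowest count above 0 being 2, and among entries whose other libraries predicted between 10 and 20 reads, 58 of 794 were at 0, so that a listed 0 at these levels is not a firm bound.

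**Figure D1:**
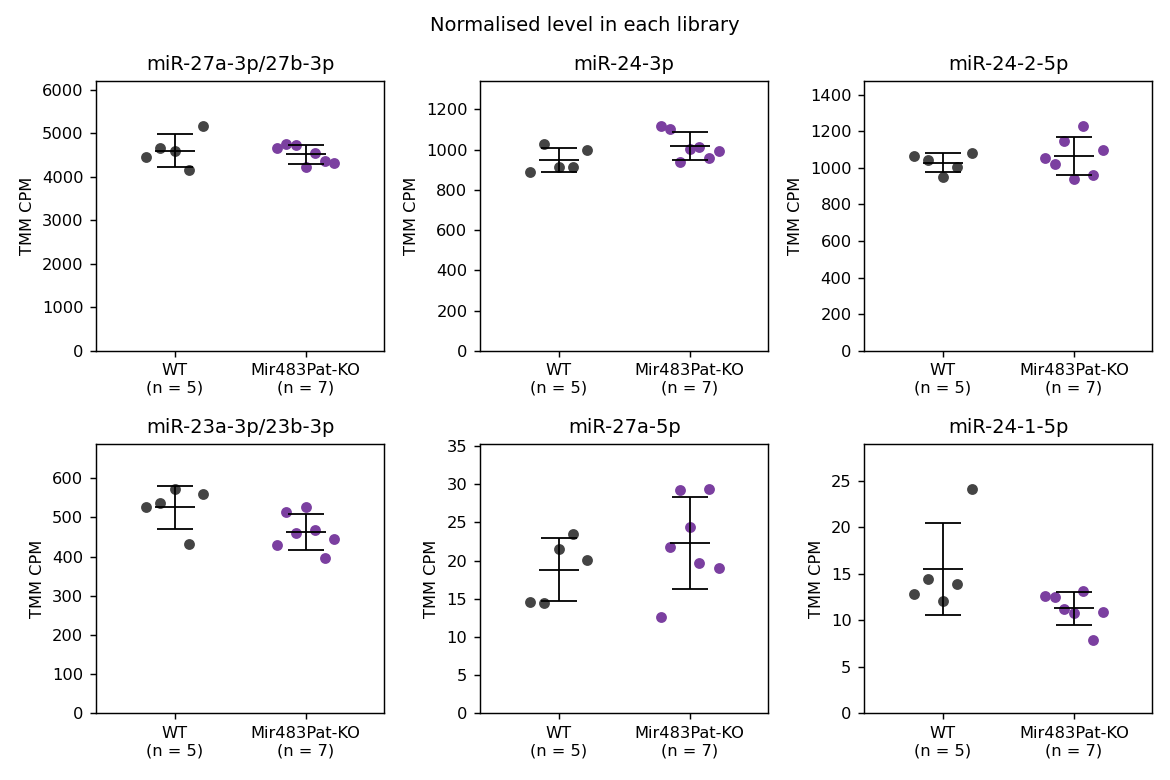
Normalised level (TMM CPM, linear axes from 0) of the 6 tested cluster entries in each of 5 WT and 7 Mir483Pat-KO livers; points are libraries, horizontal marks the mean and bars the SD. The genotypes overlap in every panel, and 1 WT library stands at 24.2 CPM for miR-24-1-5p where the other 4 lie between 12.1 and 14.4 CPM.

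Reads could be assigned to the 23a or the 23b cluster from the 5p arms alone, because the 3p arms of both copies are joined. The values are shares of 5p reads, and the output of each cluster was not measured. Over all 5p arms, 97.9% ± 0.454 of reads came from the 23a cluster (SD, n = 12), in libraries with 679 to 1285 such reads. The miR-27 and miR-24 hairpins of the same clusters gave different shares. By miR-24 arms, 98.8% ± 0.342 of reads were miR-24-2-5p, between 97.8% and 99.2% in single libraries. By miR-27 arms, 68.7% ± 10.7 were miR-27a-5p, between 51.9% and 86.7%, from only 13 to 34 reads per library. The lowest Wilson 95% bound of any library for miR-24 (96.8%) lay above the highest bound of any library for miR-27 (94.7%), so counting error did not bridge the hairpins. In reads, miR-24-2-5p exceeded miR-24-1-5p by between 44.8-fold and 121-fold, and miR-27a-5p exceeded miR-27b-5p by between 1.08-fold and 6.5-fold, with the 23a copy ahead in all 12 libraries for both. The share over all arms therefore mostly restates miR-24-2-5p.

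**Figure D2:**
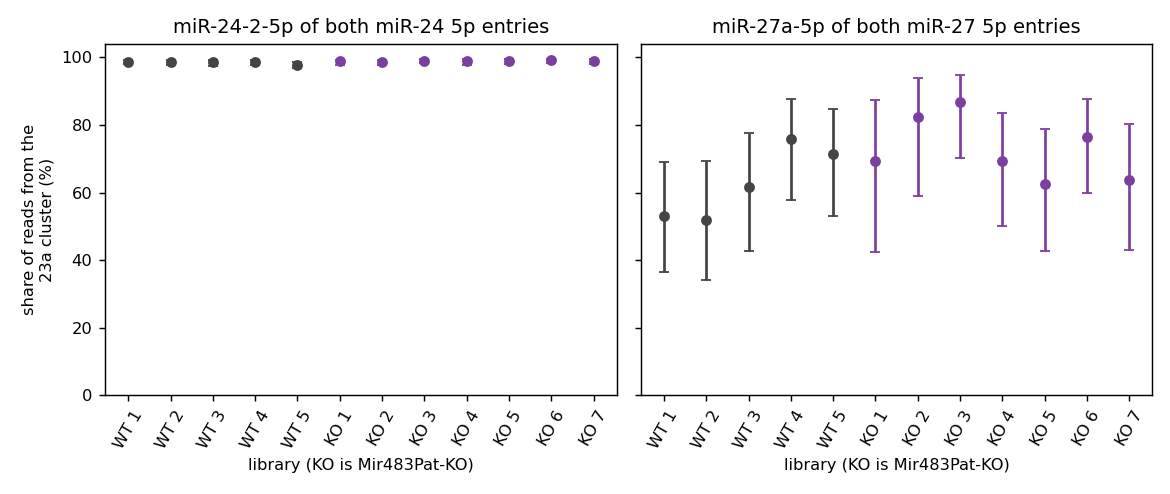
Share of 5p reads from the 23a cluster in each library (%, linear axis from 0), for the miR-24 arms on the left and the miR-27 arms on the right, with Wilson 95% intervals; grey points are WT and purple points Mir483Pat-KO. The miR-24 shares lie between 97.8% and 99.2%, and the miR-27 shares between 51.9% and 86.7% with wide intervals.

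The same reads show how far the hairpins differ in the use of their arms. The 5p arms held 51.7% ± 2.49 of miR-24 reads (SD, n = 12; 48.3% to 55.2%), whereas they held 0.665% ± 0.134 of miR-27 reads (0.389% to 0.875%) and none of the listed miR-23 reads. miR-24-2-5p outnumbered miR-24-3p in 9 of 12 libraries, in 5 of 5 WT and 4 of 7 Mir483Pat-KO. For comparison, the share on the less used arm was computed for the 143 pairs of 5p and 3p entries with at least 1000 pooled reads; a 3p entry joined from several hairpins enters once per hairpin. The median share was 1.98%, and in 10 pairs it was at least 40%. Mir24-2 was the third most balanced, at 48.6%. Paired with the same miR-24-3p entry, Mir24-1 stood at 1.30%, and Mir27a and Mir27b stood at 0.459% and 0.208%. How many miR-24-3p reads came from each hairpin cannot be read from the table.

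**Figure D3:**
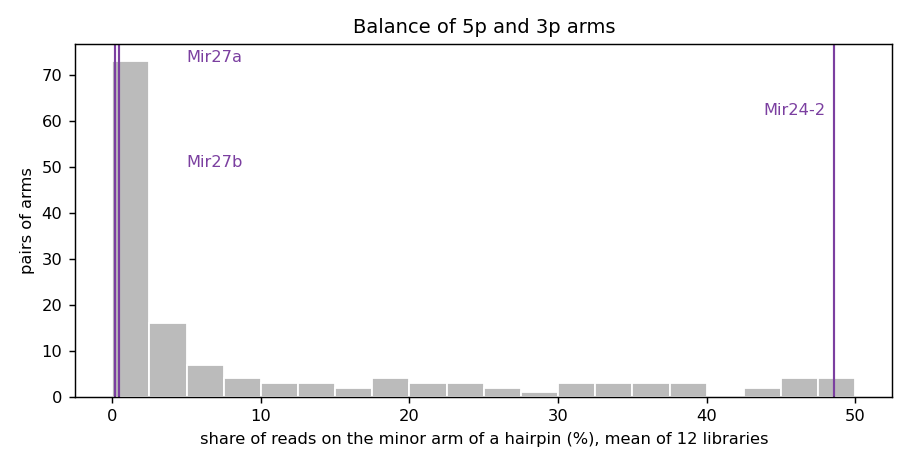
Number of pairs of 5p and 3p entries (vertical axis) by the share of their reads on the less used arm (%, mean of 12 libraries), for the 143 pairs with at least 1000 pooled reads; lines mark Mir24-2, Mir27a and Mir27b. Most pairs sit near 0 and Mir24-2 sits at 48.6%.

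miR-3074-5p, read from the strand opposite miR-24, had 29, 38, 14, 29 and 36 reads in WT and from 22 through a median of 29 to 38 reads in Mir483Pat-KO. It held 3.40% ± 0.743 of the reads of miR-3074-5p and miR-24-3p together (SD, n = 12). Of its partner arms, miR-3074-2-3p was listed at 0 throughout and miR-3074-1-3p had 2 reads in a single Mir483Pat-KO library.

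The genotype comparison asks whether loss of Mir483 altered these miRs. None of the 6 cluster entries that passed the filter on low counts was called with edgeR's quasi-likelihood test (388 entries tested, Benjamini-Hochberg adjusted p under 0.05), against 2.06% of all entries tested. At an unadjusted p under 0.05 in that test the count was 1 of the 6, against 68 of the 388 entries tested. DESeq2 and limma-voom also called 0 cluster entries, against 26 and 10 over all entries. DESeq2 gave no adjusted p for miR-27a-5p and miR-24-1-5p. Of the 6, 3 had higher and 3 lower fitted levels in Mir483Pat-KO, with a median log2 fold change of 0.0095 against 0.0028 over all entries tested. Of the 9 cluster entries listed, miR-23a-5p and miR-23b-5p had no reads and miR-27b-5p did not pass the filter. In whole liver, fewer cells of a type and less RNA per cell cannot be told apart.

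miR-23a-3p/23b-3p had the lowest p of the 3 member entries. After TMM scaling it stood at 527, 537, 574, 433 and 561 CPM in WT and ran from 396 through a median of 461 to 528 CPM in Mir483Pat-KO. The groups overlapped, with 2 of 7 Mir483Pat-KO libraries below every WT library and WT replicates 1 and 4 within the range of the Mir483Pat-KO values. The log2 fold change was −0.19 ± 0.086 (SE; 95% interval −0.37 to −0.0021), with an adjusted p of 0.275 in edgeR's quasi-likelihood test. The endothelial miRs, both arms of miR-126a, had a median log2 fold change of the same size, −0.19, with summed levels of 1010 to 1319 CPM in WT and 699 to 1189 CPM in Mir483Pat-KO; neither was called. For stellate and smooth-muscle miRs the median log2 fold change over 4 members was −0.13. Their summed levels overlapped, at 28184 to 34288 CPM in WT and 28470 to 34348 CPM in Mir483Pat-KO. A sum is set mainly by its most abundant members, and a median can hide members that differ in opposite directions. Neither value therefore shows that single members of this list were unchanged. Medians were 0.25 for erythroid miRs, 0.14 for white blood cell miRs and 0.0099 for hepatocyte miRs. For neural and muscle miRs, with 1 member tested, the value was 0.57. In all these cell-type lists 0 members were called, with 1 to 4 members tested per list, against 2.06% of all entries tested. The part of any of these cell types in the miR-23 value was not tested.

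miR-27a-3p/27b-3p was measured more tightly and differed least. It stood at 4445, 4663, 4584, 4153 and 5166 CPM in WT and from 4217 through a median of 4549 to 4754 CPM in Mir483Pat-KO, with every Mir483Pat-KO library inside the WT range. The log2 fold change was −0.028 ± 0.061 (SE; 95% interval −0.16 to 0.10; edgeR adjusted p 0.859), which changed sign under some settings, among them leaving out WT replicate 5 (0.017).

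miR-24-3p stood at 887, 1029, 915, 916 and 999.96 CPM in WT and from 939 through a median of 1001 to 1118 CPM in Mir483Pat-KO, with 2 of 7 Mir483Pat-KO libraries above every WT library. The log2 fold change was 0.10 ± 0.066 (SE; 95% interval −0.040 to 0.24; edgeR adjusted p 0.480). Its partner arm in the 23a cluster, miR-24-2-5p, differed by 0.047 ± 0.073 (SE; edgeR adjusted p 0.823), with a negative value when libraries were scaled by size alone (−0.021). The rarer arms were less certain. miR-24-1-5p differed by −0.46 ± 0.29 (SE; edgeR adjusted p 0.475) and was below every WT library in 4 of 7 Mir483Pat-KO libraries, at 15.5 ± 4.93 CPM in WT (SD, n = 5) and 11.3 ± 1.75 CPM in Mir483Pat-KO (SD, n = 7). miR-27a-5p differed by 0.26 ± 0.25 (SE; edgeR adjusted p 0.682), and miR-3074-5p by 0.35 ± 0.21 (SE; edgeR adjusted p 0.446).

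**Figure D4:**
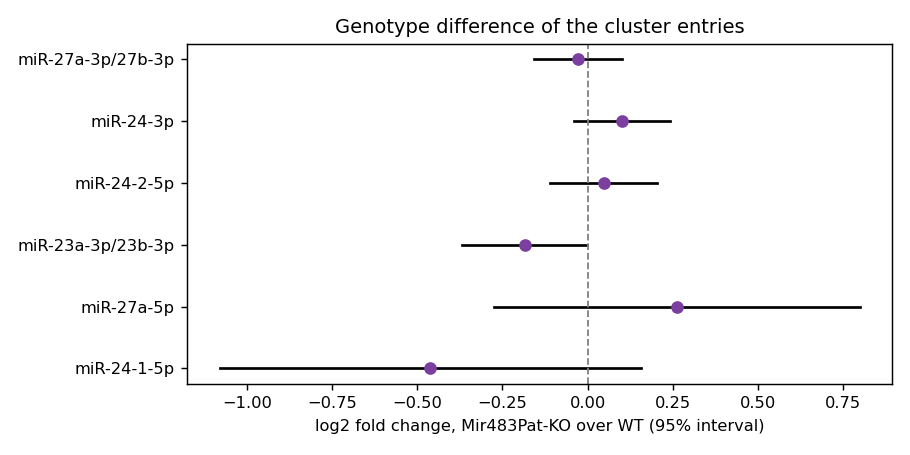
Log2 fold change of Mir483Pat-KO over WT with its 95% interval from edgeR for the 6 tested cluster entries; the dashed line marks no difference. The interval of miR-23a-3p/23b-3p ends at −0.0021, and the other 5 intervals include 0.

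Levels of partners were then compared within a library, where a ratio does not depend on how libraries are scaled. For each of 5 ratios the mean log2 ratio (0.5 added to both counts) was compared between genotypes with a two-sided exact permutation test, with adjustment over the 5.

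The ratio of miR-24-3p to miR-23-3p was higher in Mir483Pat-KO. In reads it ran from 1.59 through a median of 1.78 to 2.12 in WT, and from 1.90 through a median of 2.16 to 2.60 in Mir483Pat-KO. The groups overlapped, and 5 of 7 Mir483Pat-KO libraries lay above every WT library. The mean log2 ratio was 0.86 ± 0.16 in WT (SD, n = 5) and 1.14 ± 0.15 in Mir483Pat-KO (SD, n = 7), a difference of 0.28 or 1.22-fold (exact permutation p = 0.0139, adjusted p = 0.0347). Among the fetuses of the lower animal-number range alone, 4 against 4, the difference was 0.25 (exact permutation p = 0.143, where 0.0286 is the smallest p possible). When the fit also held the library index number, it was 0.27 (95% interval −0.15 to 0.69), so genotype and library order cannot be told apart for this ratio.

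Neither ratio to miR-27-3p passed the test in the 12 libraries. miR-24-3p to miR-27-3p had a mean log2 ratio of −2.28 ± 0.089 in WT (SD, n = 5) and −2.15 ± 0.093 in Mir483Pat-KO (SD, n = 7), a difference of 0.13 (exact permutation p = 0.0505, adjusted p = 0.0842). In 5 of 7 Mir483Pat-KO libraries it was above every WT library. The unadjusted p fell under 0.05 without WT replicate 2 (0.15, exact permutation p = 0.0394) or WT replicate 4 (0.15, exact permutation p = 0.0394). It also did so without Mir483Pat-KO replicate 3 (0.16, exact permutation p = 0.00649). Adjustment over the 5 ratios was not repeated with a fetus left out, so whether the call changes was not tested. miR-23-3p to miR-27-3p had a mean log2 ratio of −3.13 ± 0.10 in WT (SD, n = 5) and −3.29 ± 0.16 in Mir483Pat-KO (SD, n = 7), a difference of −0.16 (exact permutation p = 0.0808, adjusted p = 0.101). It was below every WT library in 5 of 7 Mir483Pat-KO libraries. Its unadjusted p fell under 0.05 only without Mir483Pat-KO replicate 4 (−0.21, exact permutation p = 0.0108).

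The 5p reads of the clusters were compared by the same test. The ratio of miR-24-2-5p to miR-24-1-5p ran from 44.8 through a median of 72.5 to 82.5 in WT, and from 81.8 through a median of 93.4 to 121 in Mir483Pat-KO. In reads, 6 of 7 Mir483Pat-KO libraries were above every WT library, and 5 of 7 were once 0.5 was added to both counts. The mean log2 ratio was 6.05 ± 0.34 in WT (SD, n = 5) and 6.48 ± 0.20 in Mir483Pat-KO (SD, n = 7), a difference of 0.43 or 1.35-fold (exact permutation p = 0.00631, adjusted p = 0.0316). The value leaned on WT replicate 5, whose 24 reads of miR-24-1-5p gave the lowest ratio. Without that library the difference was 0.29 (exact permutation p = 0.0273, not adjusted over the 5 ratios and so not comparable with the adjusted 0.0316). In the lower animal-number range alone, which leaves out that library too, it was 0.18 (exact permutation p = 0.0857), and in a fit that also held the index number it was 0.43 (95% interval −0.29 to 1.15). The denominator was at most 24 reads in any library. The other hairpin that tells the clusters apart differed by more with a wider spread: miR-27a-5p to miR-27b-5p had a mean log2 ratio of 0.76 ± 0.66 in WT (SD, n = 5) and 1.42 ± 0.69 in Mir483Pat-KO (SD, n = 7), a difference of 0.66 that did not pass (exact permutation p = 0.128, adjusted p = 0.128).

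**Figure D5:**
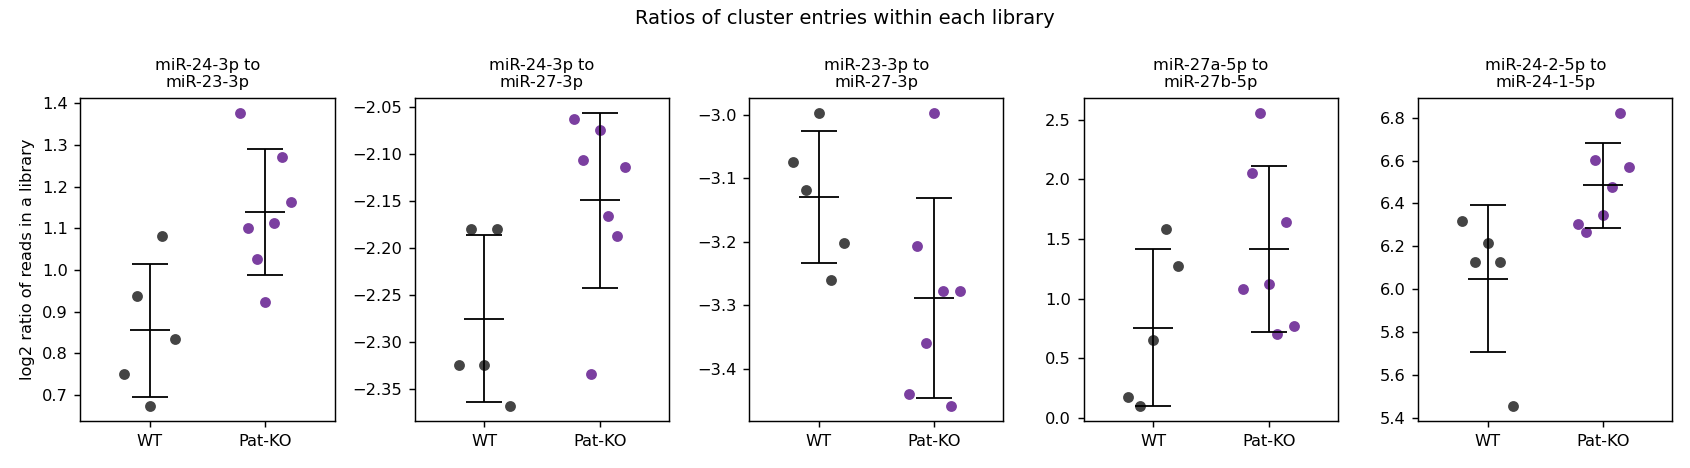
Log2 ratio of reads between cluster entries within each library (axes do not start at 0), for 5 WT and 7 Mir483Pat-KO livers (Pat-KO); points are libraries, horizontal marks the mean and bars the SD. The first and last panels are the ratios with adjusted p of 0.0347 and 0.0316, and in the last panel a single WT library stands apart at 5.45.

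Whether the partners vary together between livers was read from the log2 TMM CPM of the 3 entries over 12 libraries, with 100000 permutations and adjustment over the 3 pairs. miR-23-3p and miR-27-3p had a Pearson r of 0.44 (permutation p = 0.153, adjusted p = 0.375) and a Spearman rho of 0.33 (permutation p = 0.296), with r of 0.43 without the 2 libraries farthest from the median. miR-27-3p and miR-24-3p had r of 0.36 (permutation p = 0.250, adjusted p = 0.375) and rho of 0.39 (permutation p = 0.210), with r of 0.33 without the 2 farthest. miR-23-3p and miR-24-3p had r of −0.078 (permutation p = 0.805, adjusted p = 0.805) and rho of −0.091 (permutation p = 0.784), with r of −0.023 without the 2 farthest. As deviations from the genotype means, the 3 values of r were 0.43, 0.51 and 0.27 in the same order, and within the lower animal-number range (n = 8) they were 0.11, 0.45 and −0.20. No pair passed the test.

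The miRs most like each entry are given as a description with no test, as the highest Pearson r among 219 entries over 12 libraries. Being the highest of 219, these values cannot be compared with the r of a single pair of partners. miR-23-3p was most like miR-26a-5p (r = 0.74), miR-668-3p (0.74) and miR-30d-5p (0.72). miR-27-3p was most like miR-191-5p (r = 0.82), the joined entry miR-378a-3p/378b/378c (0.74) and miR-148b-3p (0.71). miR-24-3p was most like miR-99b-3p (r = 0.71), miR-329-3p (0.65) and miR-540-5p (0.64). As deviations from the genotype means, the values of r in these lists ran from 0.49 (miR-24-3p with miR-329-3p) to 0.82 (miR-27-3p with miR-191-5p). The 3 lists share no miR.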

How the data were processed

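Total RNA of each liver was made into TruSeq Small RNA libraries and sequenced on a NovaSeq6000, and the authors aligned and counted the reads with miRge 3.0. The deposited values are these raw counts per mature miR, neither normalized nor pooled; the labels name GRCm38, and the miR reference and adapter trimming are not given in the sources used here. Of 1927 entries, 682 had a count and 35 join several miRs. Genotypes and replicate numbers came from the sample labels, and columns were matched by animal number. The members and all lists were chosen with earlier results of these data known.

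Entries were kept by filterByExpr (minimum count 10, minimum total count 15), scaled by TMM and compared by genotype alone with glmQLFit (legacy = TRUE) and glmQLFTest in edgeR 4.0.16 (R 4.3.3), with Benjamini-Hochberg adjustment over the 388 entries kept. TMM factors ran from 0.960 to 1.07. Levels are TMM CPM, except the floor and the summed levels of the cell-type miRs, which are CPM by library size alone. Ratios and correlations used permutation tests coded directly in Python with numpy 2.4.6. Values of r and rho, and the Wilson 95% intervals of shares, came from scipy 1.17.1. The fit was tested on simulated data. Of 31 pairs of same-genotype libraries none agreed within sampling noise (chi-square per degree of freedom at least 5.53), so all were kept. Nothing says that fetuses came from separate litters, and p-values measure the spread between these fetuses.

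Named miRs are the members, the other arms of their hairpins, the miR-3074 arms, miRs with a count that share a seed, the 3 most like each member entry at a mean log2 CPM of at least 6, and miR-483. Markers of other cell types were summed per library. Stellate and smooth-muscle, erythroid, white blood cell, and neural and muscle miRs had 0 members called, against 2.06% of all entries tested. Alternatives were other scalings, filters and dispersions, DESeq2 1.42.0, limma-voom (limma 3.58.1), a replicate block, animal-number range, index number, other pseudocounts (2 or 0) and leaving out each fetus. Same-numbered fetuses did not deviate together (r from −0.24 to 0.23), so replicate numbers were not taken as pairs.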

Additional observations from a re-analysis of the deposited data

Results flagged for a closer look

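Outlying libraries were looked for in 26 groups, 13 measures in each genotype, where chance alone marks about 1 in 20, and 2 values stood apart. WT replicate 5 had miR-24-1-5p at 24.2 CPM, while the other 4 WT libraries lay between 12.1 and 14.4 CPM. The same library had a log2 ratio of miR-24-2-5p to miR-24-1-5p of 5.45, while the other 4 lay between 6.13 and 6.32. Both rest on the same 24 reads of miR-24-1-5p and count as 1 observation. It is the only WT library of the upper animal-number range.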

How the results depend on the processing

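No cluster entry with an adjusted p was called under any of the 14 other settings run or with any fetus left out. The count over all entries ran from 2 to 26, against 8. Not every setting could call all the entries. DESeq2 gave no adjusted p for miR-27a-5p and miR-24-1-5p, and neither passed the filter of at least 10 counts in every library. The log2 fold change of miR-23-3p stayed negative, from −0.25 to −0.076 (adjusted p from 0.109 to 0.980), and that of miR-24-3p positive, from 0.030 to 0.20. That of miR-27-3p turned positive in the fit holding the index number (0.028) and in the lower animal-number range alone (0.028), and ran from −0.066 to 0.017 with each fetus left out. miR-27a-5p turned negative with the index number (−0.28). miR-24-2-5p turned negative by library size alone (−0.021) and ran from −0.0097 to 0.069 with each fetus left out. miR-24-1-5p passed the filter in 7 of the 12 fits that leave out a fetus. With the replicate block, miR-23-3p was at −0.13 (adjusted p 0.697), miR-27-3p at −0.0028 and miR-24-3p at 0.12 (edgeR's quasi-likelihood test), and no call among the cluster entries changed; over all entries 3 were called.

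Ratios of miR-24-3p to miR-23-3p differed by 0.25 in the lower range and 0.27 with the index number. With each fetus left out they differed by 0.24 to 0.34 (exact permutation p at most 0.0364). This p was not adjusted over the 5 ratios, so it does not show that the call at an adjusted p of 0.0347 held. miR-24-2-5p to miR-24-1-5p gave 0.18, 0.43 and 0.29 to 0.50. miR-24-3p to miR-27-3p ran from 0.10 to 0.16 and miR-23-3p to miR-27-3p from −0.21 to −0.12 with each fetus left out. The share of 5p reads from the 23a cluster was 68.7% by miR-27 arms and 98.8% by miR-24 arms. The correlation of miR-23-3p and miR-27-3p was 0.66 by library size alone (permutation p = 0.0177), and that of miR-23-3p and miR-24-3p was 0.27 as deviations and 0.26 by library size. The cause of these shifts was not tested. The index covariate for ratios and the lower range for fold changes were chosen after seeing the data. Depth limits the 5p arms other than miR-24-2-5p, at 26 reads or fewer.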
